A study of Mus musculus with 87 samples.

Results

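Germline and meiosis genes were followed in mouse embryonic stem cells that lack subunits of Polycomb repressive complex 2 (PRC2). The 8 genes are Dazl, Ddx4, Mael, Stra8, Sycp1, Sycp3, Hormad1 and Dppa3. They were chosen by name, with earlier results of these data known, and found by Ensembl ID among the 55450 IDs of the deposited count files. All 8 were among the 14650 IDs with enough reads to test.

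The series holds 87 samples. RNA was sequenced in 24 of them, 3 libraries for each of 8 genotypes, and the other 63 are chromatin immunoprecipitations whose own signal is not analysed here. All cells were embryonic stem cells grown on gelatin in 2i medium, which holds inhibitors that keep the cells in a naive pluripotent state. Wild type (WT) cells and Suz12 KO cells, which lack the core subunit, mark the ends of the design. Pcl1-3 KO cells lack Pcl1, Pcl2 and Pcl3, and 4 genotypes added losses to these: Epop (Pcl1-3 + Epop KO), Jarid2 (Pcl1-3 + Jarid2 KO), Jarid2 with Aebp2 (Pcl1-3 + Jarid2 + Aebp2 KO), or all of these (Pcl1-3 + Jarid2 + Aebp2 + Epop KO). That last genotype lacks all 6 non-core subunits targeted in this series and is called the non-core knockout below. In the Jarid2 + Aebp2 KO the Pcl genes were kept. Whether the 3 libraries of a genotype are separate cultures or clones is not stated, so p-values measure only the spread among them, and that may be technical. In the RNA labels the strain name runs from 129B6F1 in WT to 129B6F8 in the non-core knockout, with 1 name per genotype, while every chromatin sample, these 8 genotypes included, is labelled 129B6F1. Whether the RNA libraries differ in strain is therefore uncertain, and if they do, strain and genotype cannot be told apart. Total counts ran from 10148155 to 28442061 per library.

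PRC2 methylates histone H3 at lysine 27, a mark of silent developmental genes. Without its core subunit SUZ12 the complex falls apart. In one form of the complex the core binds a PCL protein with or without EPOP, and in the other it binds JARID2 and AEBP2. Germline genes are silent or low in most somatic cells, where DNA methylation and a variant Polycomb complex with MGA, MAX and E2F6 act on their promoters; the latter proteins recognise E-box and E2F sequences. Embryonic stem cells in 2i have little DNA methylation and transcribe some of these genes at low levels.

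The deposited peak lists placed SUZ12 at 5 of the 8 genes, PCL2 at 7 and JARID2 at 1, counting peaks inside a gene or within 1 kb of it. Among 21887 protein-coding genes the shares were 24.2% for SUZ12, 42% for PCL2 and 14.3% for JARID2. The lists hold positions only, with no score and no replicate, so presence of a peak is a description with no test. The comparisons of RNA below did not use them.

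SUZ12 and PCL2 peaks lay together over the start of Dazl, Ddx4, Sycp1 and Hormad1. Dazl (ENSMUSG00000010592) encodes a germ cell RNA-binding protein that controls translation (chr17:50279393-50293620, minus strand, mm10), and its SUZ12 peak of 1474 bp reached from position -942 to 531 bp around the start. Ddx4 (ENSMUSG00000021758) encodes the Vasa RNA helicase (chr13:112598333-112652633, minus strand) and had a SUZ12 peak of 1361 bp. Hormad1 (ENSMUSG00000028109), whose protein coats unsynapsed meiotic chromosome axes (chr3:95559677-95587863, plus strand), had one of 1287 bp. PCL2 peaks of 1694 bp, 1475 bp and 932 bp overlapped them in that order. Sycp1 (ENSMUSG00000027855), which encodes the transverse filament of the synaptonemal complex (chr3:102818499-102936100, minus strand), was the 1 gene of the 8 with a peak for each protein: 1356 bp for SUZ12, 1056 bp for PCL2 and 859 bp for JARID2.

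Mael and Stra8 had a PCL2 peak and no SUZ12 peak. Mael (ENSMUSG00000040629) encodes a factor of the piRNA pathway that silences transposons (chr1:166201385-166238744, minus strand); its PCL2 peak was 726 bp wide and the nearest SUZ12 peak was 14987 bp away. Stra8 (ENSMUSG00000029848) encodes a retinoic acid-induced regulator of meiotic entry (chr6:34920163-34939344, plus strand), and its PCL2 peak was 330 bp wide. Across the whole PCL2 list the median width was 724 bp. Dppa3 (ENSMUSG00000046323), also called Stella, protects the maternal genome's DNA methylation in the early embryo and is expressed in primordial germ cells (chr6:122626424-122630271). It held a SUZ12 peak of 841 bp and a PCL2 peak of 607 bp inside the gene, and another PCL2 peak of 280 bp lay 67 bp outside it. Sycp3 (ENSMUSG00000020059), which encodes the axial element of meiotic chromosomes (chr10:88459587-88473236, plus strand), had no peak nearby: the closest SUZ12 and PCL2 peaks were 30027 bp and 29914 bp away.

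**Figure D1:**
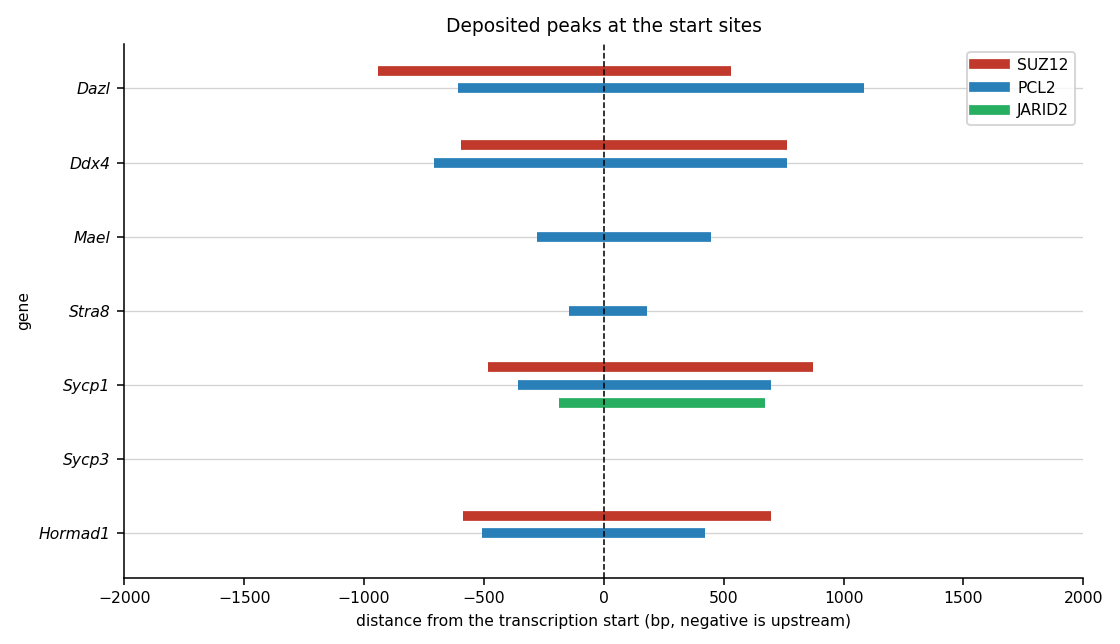
Deposited SUZ12 (red), PCL2 (blue) and JARID2 (green) peaks around the transcription start of 7 genes; the horizontal axis is distance from the start in bp, negative upstream, and each bar is 1 peak. SUZ12 and PCL2 bars span the start of Dazl, Ddx4, Sycp1 and Hormad1, PCL2 alone spans those of Mael and Stra8, and Sycp3 has none; Dppa3 is not drawn because the table used here gives it no start.

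Promoter sequences from RefSeq (GRCm38.p6, the assembly of mm10) matched 7 of the 8 genes, all but Dppa3. They are shown for the genes with a peak over the start that changed in a comparison below, and for Sycp3 as the gene without a peak. Each line gives the 150 bases that end just before the transcription start, 5′ to 3′ on the gene's own strand. Capitals mark the E-box CACGTG, which reads the same on both strands, and the E2F-like GCGGGA on either strand (TCCCGC when on the other strand); the 2 motifs share no letters in these windows.
Dazl, chr17:50293621-50293770, minus strand: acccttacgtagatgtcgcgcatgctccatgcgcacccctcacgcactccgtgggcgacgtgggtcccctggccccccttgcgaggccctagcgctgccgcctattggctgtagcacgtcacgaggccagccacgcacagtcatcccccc
Ddx4, chr13:112652311-112652460, minus strand: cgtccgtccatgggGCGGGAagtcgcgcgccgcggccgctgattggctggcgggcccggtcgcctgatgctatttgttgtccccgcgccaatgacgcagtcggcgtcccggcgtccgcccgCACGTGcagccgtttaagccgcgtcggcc
Mael, chr1:166238745-166238894, minus strand: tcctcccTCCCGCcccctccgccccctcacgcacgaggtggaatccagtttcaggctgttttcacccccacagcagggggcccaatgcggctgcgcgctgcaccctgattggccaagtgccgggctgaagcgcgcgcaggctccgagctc
Sycp1, chr3:102936101-102936250, minus strand: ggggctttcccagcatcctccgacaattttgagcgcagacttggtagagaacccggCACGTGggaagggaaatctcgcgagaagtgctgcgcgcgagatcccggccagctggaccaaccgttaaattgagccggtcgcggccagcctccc
Hormad1, chr3:95559527-95559676, plus strand: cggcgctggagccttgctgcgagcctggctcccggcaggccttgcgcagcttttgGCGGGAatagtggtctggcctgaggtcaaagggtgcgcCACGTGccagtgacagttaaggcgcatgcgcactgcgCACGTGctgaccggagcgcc
Sycp3, chr10:88459437-88459586, plus strand: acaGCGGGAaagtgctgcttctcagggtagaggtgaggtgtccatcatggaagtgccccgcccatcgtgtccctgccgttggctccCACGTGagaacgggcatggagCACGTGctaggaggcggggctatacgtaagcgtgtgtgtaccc

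Over the 250 bases before the start, 5 of the 7 promoters held the E-box, against 6.05% of all 27025 promoters in the table searched the same way. The E2F-like letters were in 4 of the 7, against 16.9%, and both motifs together in 4, against 1.47%. Ddx4, Mael, Sycp3 and Hormad1 held both, and Sycp1 the E-box alone. In Mael the E-box began 223 bases before the start and so falls outside the printed stretch. Sycp3 and Hormad1 each had 2 E-boxes, at 64 and 43 bases before the start in Sycp3 and at 57 and 20 in Hormad1. Dazl and Stra8 held neither. The dinucleotide CG occurred 31 times in Ddx4, 20 in Dazl, 19 in Hormad1, 18 in Mael, 17 in Sycp1, 12 in Sycp3 and 5 in Stra8, with a median of 6 and an upper quartile of 16 over all promoters. Both motifs contain CG, and the shares over all promoters were not matched for CG count. A match of letters is not a binding site, and its absence in this window says nothing about a factor.

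The first RNA comparison asks what these genes did when PRC2 lost its core subunit. In Suz12 KO cells 5 of the 8 genes rose against WT and none fell, where 20.7% of all tested IDs rose and 18.3% fell (edgeR quasi-likelihood test, Benjamini-Hochberg adjusted p under 0.05). The genes that rose were Mael, Sycp1, Dazl, Ddx4 and Dppa3, by 10.04-fold, 6.0-fold, 5.68-fold, 2.41-fold and 1.77-fold. The median log2 fold change of the 8 was 1.38, beside -0.02 over all tested IDs. Levels are given as CPM, read counts relative to library size after scaling by the trimmed mean of M values. CPM takes no account of gene length, so levels are compared between genotypes and not between genes. In such bulk libraries, more cells with a transcript and more of it per cell cannot be told apart.

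Dazl stood at 18.8, 29.4 and 19.0 CPM in WT replicates 1, 2 and 3, and at 79.5, 124 and 177 CPM in Suz12 KO. Every Suz12 KO library was above every WT library, and the log2 fold change was 2.50 (SE 0.50, adjusted p = 0.000437). Ddx4, with a promoter holding both motifs in the lines above, measured 7.60, 11.5 and 10.3 CPM in WT and 16.6, 25.9 and 28.5 CPM in Suz12 KO. These groups did not overlap either, at a log2 fold change of 1.27 (SE 0.32, adjusted p = 0.00339). Among all tested IDs, 28.5% had all Suz12 KO libraries above all WT libraries.

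Mael was close to silent in WT, at 1.46, 2.18 and 1.97 CPM from 15 to 27 reads. In Suz12 KO it reached 8.42, 17.5 and 30.7 CPM from 126 to 497 reads. The lowest Suz12 KO library was far above the highest WT library, and the log2 fold change of 3.33 (SE 0.71, adjusted p = 0.000866) exceeded that of each of the other 7 genes. Mael was also the gene that rose with a PCL2 peak and no SUZ12 peak at its start.

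The synaptonemal complex genes split. Sycp1 measured 1.66, 3.17 and 2.33 CPM in WT and 9.56, 16.2 and 17.2 CPM in Suz12 KO, a log2 fold change of 2.59 without overlap (SE 0.43, adjusted p = 6.99e-05). Sycp3 measured 2.53, 4.46 and 3.35 CPM in WT and 1.87, 3.18 and 4.39 CPM in Suz12 KO. Its groups overlapped and the log2 fold change was -0.13 (SE 0.63, adjusted p = 0.897, approximate 95% interval -1.37 to 1.12). Hormad1, with a SUZ12 peak over its start, measured 25.8, 30.9 and 29.2 CPM in WT and 23.7, 27.2 and 41.5 CPM in Suz12 KO. Its log2 fold change was 0.10 (SE 0.21, adjusted p = 0.732, approximate 95% interval -0.31 to 0.51).

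Stra8 stood at 1.66, 4.56 and 1.75 CPM in WT and 3.41, 8.40 and 10.2 CPM in Suz12 KO. WT replicate 2 lay above Suz12 KO replicate 1, and the log2 fold change of 1.48 did not pass the test (SE 0.78, adjusted p = 0.138). Stra8 was called higher without the filter on low counts, with replicate number as a block in the model, and with only these genotypes in the model. Dppa3 measured 40.9, 37.2 and 26.7 CPM in WT and 50, 67.6 and 67.5 CPM in Suz12 KO. The Suz12 KO libraries were all higher, at a log2 fold change of 0.82 (SE 0.27, adjusted p = 0.0175). Over 12 alternatives its adjusted p ran from 2.4e-07 to 0.0897. The call was lost without WT replicate 3 (0.67, adjusted p = 0.0897), Suz12 KO replicate 2 (0.74, adjusted p = 0.062) or Suz12 KO replicate 3 (0.74, adjusted p = 0.0632), while the calls of Dazl, Ddx4, Mael and Sycp1 held in all 12 alternative analyses of this comparison. The lowest adjusted p of Dppa3 came from the edgeR fit without the filter. For Dazl that fit gave an adjusted p of 4.33e-51 at a log2 fold change of 2.51, beside 0.000437 at 2.50 in the main fit. The cause was not tested, so p-values and calls without the filter, here and below, are not read as stronger evidence.

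**Figure D2:**
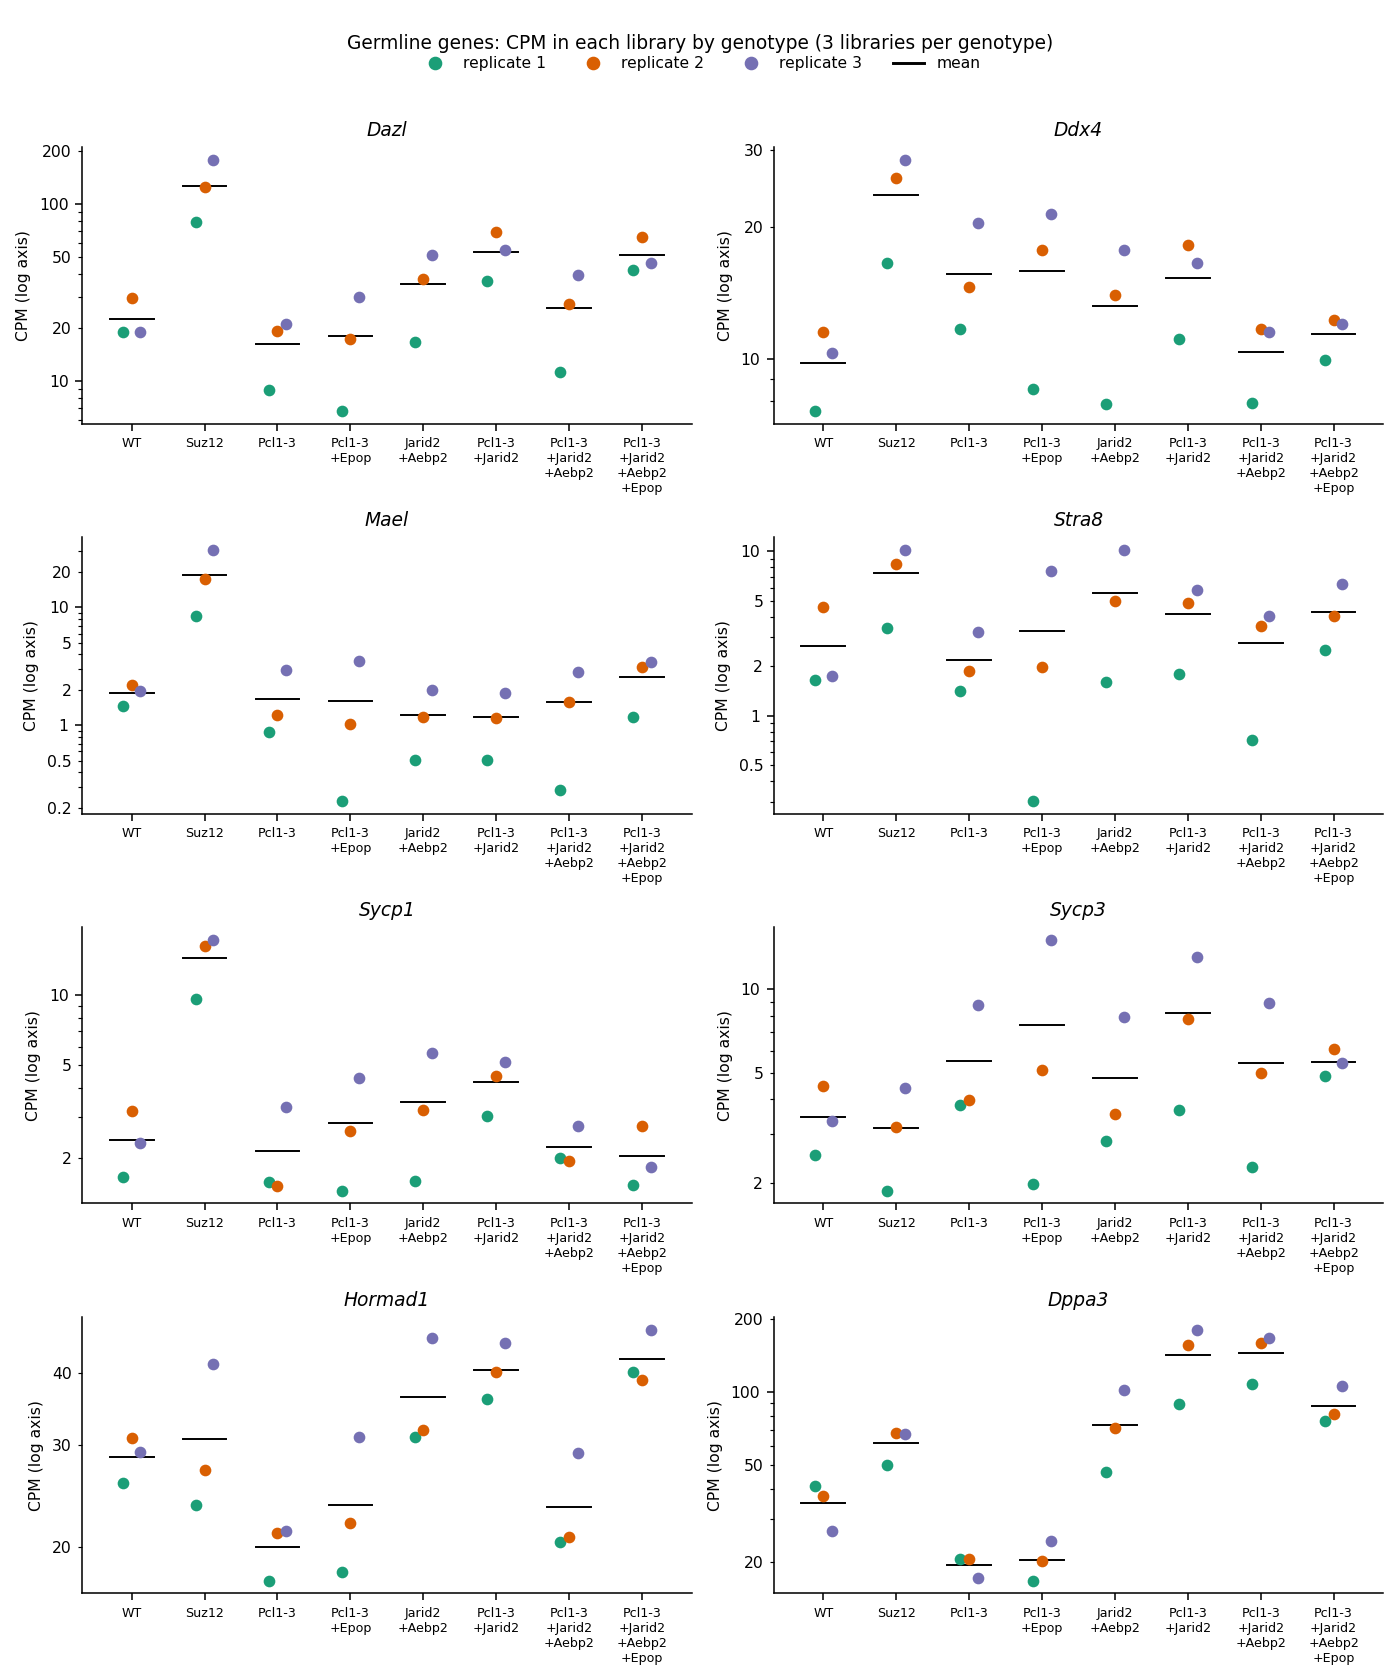
CPM (log axis) of the 8 genes in each of the 24 libraries, by genotype; points are libraries coloured by replicate number and the black bar is the mean of 3. Dazl, Mael and Sycp1 are highest in Suz12 KO with no overlap with the next genotype, while Dppa3 is highest in the Pcl1-3 + Jarid2 KO and Pcl1-3 + Jarid2 + Aebp2 KO, with means of 142 and 145 CPM. How many tested IDs show such a gap was not counted.

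A second comparison asks whether removing the 6 targeted non-core subunits did what removing Suz12 did. For Dazl, Ddx4, Mael and Sycp1 it did not: all 4 were lower in the non-core knockout than in Suz12 KO, where 22.2% of tested IDs were lower. None of the 8 was called higher, where 20.8% of tested IDs were. Other analyses did call some higher: Sycp3 and Hormad1 with the replicate block, these and Dppa3 without the filter, Dppa3 with only these genotypes in the model, and Hormad1 without Suz12 KO replicate 3. The median log2 difference of the 8 was -0.91, beside 0.02 over all tested IDs. The libraries of these 4 genes did not overlap between the genotypes, as was so for 26.6% of tested IDs in that direction.

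Mael measured 1.17, 3.15 and 3.42 CPM in the non-core knockout, 7.25-fold below Suz12 KO (log2 difference -2.86, SE 0.68, adjusted p = 0.00194). Sycp1 measured 1.53, 2.76 and 1.84 CPM, 6.97-fold below (log2 difference -2.80, SE 0.43, adjusted p = 2.62e-05). Both overlapped their WT libraries. Ddx4 measured 9.97, 12.3 and 12 CPM, also overlapping WT, and lay 2.07-fold below Suz12 KO (log2 difference -1.05, SE 0.32, adjusted p = 0.0105).

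Dazl took an intermediate place. Its non-core knockout libraries measured 42.2, 65.4 and 46.7 CPM, all above WT and all below Suz12 KO. The difference from Suz12 KO was -1.30 on the log2 scale (SE 0.47, adjusted p = 0.0298), with adjusted p from 7.34e-16 to 0.145 over 12 alternatives. It was lost without Suz12 KO replicate 2 (-1.31, adjusted p = 0.0579), Suz12 KO replicate 3 (-0.98, adjusted p = 0.145), non-core knockout replicate 1 (-1.20, adjusted p = 0.0886) or non-core knockout replicate 3 (-1.23, adjusted p = 0.0846). Against WT the log2 fold change was 1.20 and missed the threshold (SE 0.49, adjusted p = 0.0629), though Dazl was called higher without the filter, with the replicate block and with only these genotypes in the model.

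Dppa3 and Hormad1 did not follow these genes. Dppa3 measured 76.4, 81.3 and 106 CPM in the non-core knockout, all above its Suz12 KO libraries, with a log2 difference of 0.51 that did not pass (SE 0.26, adjusted p = 0.12). Against WT it rose by 1.33 on the log2 scale (SE 0.27, adjusted p = 0.000645). Hormad1 measured 40.2, 38.9 and 47.5 CPM, above every WT library. Its log2 fold change against WT was 0.56 (SE 0.21, adjusted p = 0.0463), and the call was lost when any 1 of the 6 libraries compared was left out, with values from 0.46 to 0.61 and adjusted p from 0.058 to 0.165. Over all 12 alternatives its adjusted p ran from 0.000979 to 0.165. These 2 genes were the ones called against WT in the non-core knockout, where 17.1% of tested IDs rose. Stra8 and Sycp3 passed the test against neither WT nor Suz12 KO, although the Sycp3 libraries, at 4.85, 6.07 and 5.42 CPM, were above every Sycp3 library of both. Without the filter Stra8 was called lower than in Suz12 KO. All libraries of the non-core knockout were above all WT libraries for 23.4% of tested IDs and above all Suz12 KO libraries for 24.9%.

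**Figure D3:**
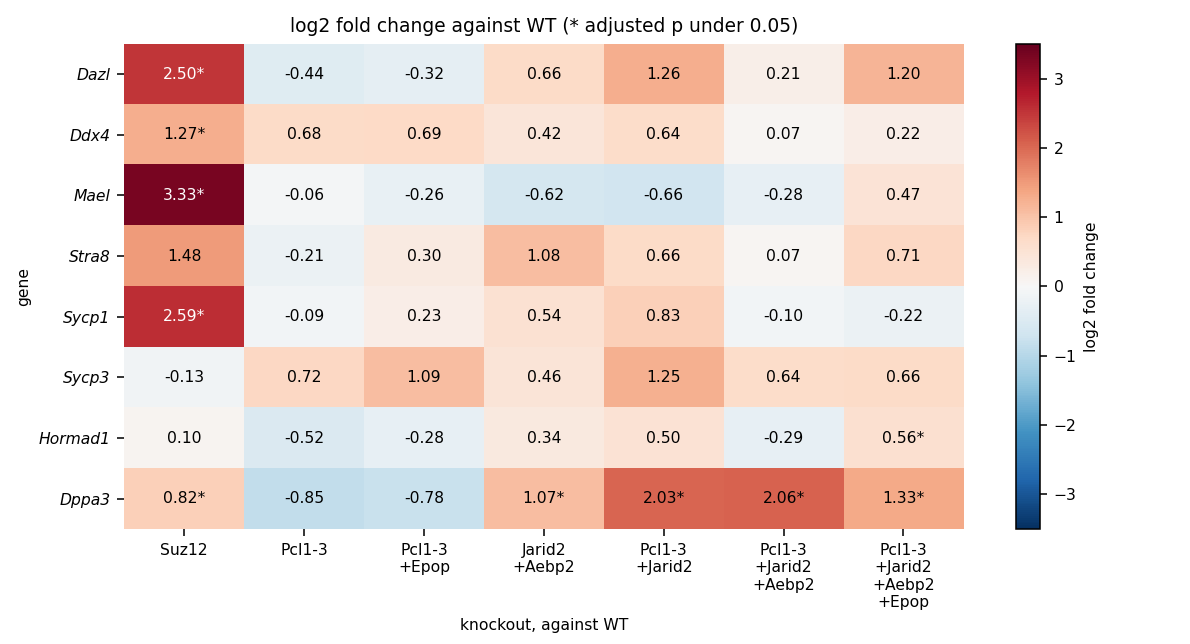
Log2 fold change of each gene (rows) in each knockout against WT (columns); the number in each cell is the log2 fold change, red is higher and blue lower than WT, and an asterisk marks an adjusted p under 0.05 in the edgeR test. Suz12 KO has 5 marked genes, and Dppa3 is marked in 5 of 7 knockouts but has values of -0.85 and -0.78 in the Pcl1-3 KO and Pcl1-3 + Epop KO. How many tested IDs were called as often was not counted.

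The other knockouts address which non-core subunits matter for these genes. They share the 3 WT libraries, so their fold changes are given side by side and not set against each other. In the Pcl1-3 KO none of the 8 passed the edgeR test, where 8.70% of tested IDs did; 3 had an unadjusted p under 0.05 (Ddx4, Hormad1 and Dppa3), and DESeq2 called Dppa3 lower. In the Pcl1-3 + Epop KO none passed, where 7.61% did; 2 had an unadjusted p under 0.05 (Ddx4 and Dppa3), and DESeq2 again called Dppa3 lower. In the Jarid2 + Aebp2 KO, Pcl1-3 + Jarid2 KO and Pcl1-3 + Jarid2 + Aebp2 KO the gene that rose was Dppa3, alone of the 8 in each. The shares of tested IDs that rose were 2.26%, 9.26% and 7.95% in that order. For the Pcl1-3 + Jarid2 KO this depended on the analysis: 6 genes were called higher with the replicate block (Dazl, Ddx4, Sycp1, Sycp3, Hormad1 and Dppa3), 5 without the filter (these without Sycp1) and 4 with only these genotypes in the model (Dazl, Ddx4, Hormad1 and Dppa3). Over all tested IDs, calls either way went from 2516 to 4052, 2816 and 3959 in that order.

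Dppa3 was called in 5 of the 7 knockouts, more than any other of the 8 genes. How many tested IDs were called as often was not counted, and these comparisons share the WT libraries. Dppa3 was lowest where the Pcl genes were removed and Jarid2 was intact, at 20.6, 20.6 and 17.1 CPM in the Pcl1-3 KO and 16.7, 20.2 and 24.3 CPM in the Pcl1-3 + Epop KO. All 6 of these libraries were below all 3 WT libraries, but neither log2 fold change passed (-0.85, SE 0.27, adjusted p = 0.0564, and -0.78, SE 0.27, adjusted p = 0.0874). Dppa3 was called lower in both with the replicate block, without the filter and by DESeq2. In the Pcl1-3 KO it was also called lower with only these genotypes in the model and without WT replicate 3. Libraries lay below WT without overlap for 15.5% and 12.6% of tested IDs in these knockouts.

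With Jarid2 lost, Dppa3 was above WT in every library. It measured 47.0, 71.3 and 102 CPM in the Jarid2 + Aebp2 KO, a log2 fold change of 1.07 (SE 0.27, adjusted p = 0.0254). This call was lost in 5 of 12 alternative analyses, over which the adjusted p ran from 4.12e-11 to 0.201: without WT replicate 1 (1.20, adjusted p = 0.0734), WT replicate 2 (1.12, adjusted p = 0.0648), WT replicate 3 (0.90, adjusted p = 0.114) or Jarid2 + Aebp2 KO replicate 3 (0.76, adjusted p = 0.201), and when the model held only these genotypes (1.07, adjusted p = 0.0588). In the Pcl1-3 + Jarid2 KO it measured 89.2, 156 and 181 CPM, 4.08-fold above WT (log2 fold change 2.03, SE 0.27, adjusted p = 2.79e-05). In the Pcl1-3 + Jarid2 + Aebp2 KO it measured 108, 159 and 168 CPM, 4.17-fold above WT (log2 fold change 2.06, SE 0.27, adjusted p = 1.79e-05). The calls in these last 2 knockouts held in all 12 alternatives of each.

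In the order of mean Dppa3 levels, WT at 34.9 ± 7.36 CPM (SD, n = 3) stood apart from Suz12 KO at 61.7 ± 10.1 CPM above it and from the Pcl1-3 + Epop KO at 20.4 ± 3.80 CPM below it. All other neighbours in the order overlapped. For Dazl, Mael and Sycp1 the break in the order came between Suz12 KO, at 127 ± 48.8, 18.9 ± 11.2 and 14.3 ± 4.17 CPM, and the next genotype, and the remaining 7 genotypes overlapped neighbour by neighbour. For Ddx4, Stra8, Sycp3 and Hormad1 every pair of neighbours overlapped. Over all tested IDs, Suz12 KO lay above WT without overlap for 28.5%, and the Pcl1-3 + Epop KO below WT for 12.6%. How many tested IDs show a gap between neighbours in such an order was not counted.

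Ddx4, Mael, Stra8, Sycp1 and Sycp3 did not pass the test against WT in any of the 6 knockouts that kept Suz12. Mael was not called there under any alternative, but the others were under some. Ddx4 was called higher in the Pcl1-3 KO, Pcl1-3 + Epop KO and Pcl1-3 + Jarid2 KO both with the replicate block and without the filter. In the Pcl1-3 + Epop KO it was also called without that knockout's replicate 1. Sycp3 was called higher in the Pcl1-3 + Jarid2 KO with the block and without the filter, and in the Pcl1-3 + Epop KO without the filter. Sycp1 was called higher in the Pcl1-3 + Jarid2 KO with the block, and Stra8 in the Jarid2 + Aebp2 KO without the filter. Mael means ran from 1.18 to 2.58 CPM in these, beside 1.87 ± 0.37 CPM in WT, and its libraries went down to 0.228 CPM, or 3 reads. Sycp1 means ran from 2.04 to 4.23 CPM, beside 2.39 ± 0.76 CPM in WT. Ddx4 means ran from 10.3 to 15.9 CPM, Stra8 from 2.18 to 5.59 CPM and Sycp3 from 4.77 to 8.21 CPM. The SE of 0.61 to 0.81 on the log2 scale for Mael, Stra8 and Sycp3 left wide intervals, so small changes may have been missed. Of 50 simulated 2-fold increases, 27 were recovered in the Suz12 KO comparison. That simulation drew genes of all levels, with no replicate effect. It does not give the recovery for these genes or in these knockouts.

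Dazl in the Pcl1-3 + Jarid2 KO measured 36.7, 69.3 and 55.0 CPM, above every WT library, and missed the threshold (log2 fold change 1.26, SE 0.49, adjusted p = 0.0804). In the Pcl1-3 KO its libraries ran from 8.85 to 20.9 CPM, and in the Pcl1-3 + Jarid2 + Aebp2 KO 11.2, 27.1 and 39.6 CPM. Both ranges overlapped WT. Hormad1 lay above WT without overlap in the Pcl1-3 + Jarid2 KO (log2 fold change 0.50, SE 0.21, adjusted p = 0.112) and the Jarid2 + Aebp2 KO (0.34, SE 0.21, adjusted p = 0.362), and below it in the Pcl1-3 KO (-0.52, SE 0.21, adjusted p = 0.138). None of these 3 differences passed. Libraries lay on that side of WT without overlap for 22.2%, 16% and 15.5% of tested IDs in that order. Hormad1 was called higher in the Pcl1-3 + Jarid2 KO and lower in the Pcl1-3 KO with the replicate block, without the filter and with only these genotypes in the model.

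Steps between knockouts followed 1 further loss at a time. The step that moved most of the 8 was the loss of Jarid2 from cells that already lacked the Pcl genes, where 3 of the 8 genes rose and none fell; 3.71% of tested IDs rose and 2.56% fell. Dppa3 rose 7.35-fold (log2 difference 2.88, SE 0.28, adjusted p = 2.44e-06), Dazl 3.25-fold (1.70, SE 0.49, adjusted p = 0.0401) and Hormad1 2.02-fold (1.01, SE 0.21, adjusted p = 0.0047). Hormad1 went from 17.5, 21.2 and 21.3 CPM to 36.1, 40.1 and 45.0 CPM. For these 3 genes every library of the Pcl1-3 + Jarid2 KO was above every library of the Pcl1-3 KO, as was so for 13.1% of tested IDs. With the replicate block Sycp1 was called higher as well. The Dppa3 and Hormad1 calls held in all 12 alternatives. The Dazl call, with adjusted p from 3.19e-23 to 0.211 over 12 alternatives, was lost without Pcl1-3 KO replicate 1 (1.42, adjusted p = 0.211), replicate 2 (1.81, adjusted p = 0.0778) or replicate 3 (1.93, adjusted p = 0.0808), and without Pcl1-3 + Jarid2 KO replicate 2 (1.47, adjusted p = 0.159) or replicate 3 (1.67, adjusted p = 0.119).

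The other steps moved few of the genes. Adding the loss of Epop to the Pcl1-3 KO changed none of the 8, in a step where 1 ID of all tested, or 0.00683%, was called. None had an unadjusted p under 0.05 and DESeq2 called 0. Their log2 differences lay between -0.20 (Mael) and 0.51 (Stra8). Adding the loss of Aebp2 to the Pcl1-3 + Jarid2 KO changed none either in edgeR, where 0.901% of tested IDs were called; 3 had an unadjusted p under 0.05 (Dazl, Sycp1 and Hormad1), and DESeq2 called 1, Hormad1, as lower. Dppa3 differed by 0.03 there (SE 0.26, approximate 95% interval -0.47 to 0.53). Hormad1 measured 20.4, 20.8 and 29.1 CPM in the Pcl1-3 + Jarid2 + Aebp2 KO, below every Pcl1-3 + Jarid2 KO library, but the log2 difference of -0.79 missed the threshold (SE 0.21, adjusted p = 0.0911). Libraries lay below without overlap for 8.17% of tested IDs at this step. Dazl and Hormad1 were both called lower with the replicate block and without the filter.

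At the step that added the loss of Epop to the Pcl1-3 + Jarid2 + Aebp2 KO, Hormad1 was higher. It measured 40.2, 38.9 and 47.5 CPM in the non-core knockout, and 5.79% of tested IDs rose at this step. The log2 difference was 0.85 (SE 0.21, adjusted p = 0.0105). Over 12 alternatives the adjusted p ran from 2.85e-05 to 0.0607, and the call was lost without Pcl1-3 + Jarid2 + Aebp2 KO replicate 1 (0.76, adjusted p = 0.0607) or replicate 2 (0.77, adjusted p = 0.0556) and without non-core knockout replicate 3 (0.75, adjusted p = 0.0573). The call was also lost when replicate 1 of every genotype was left out. Dppa3 was lower in every library of the non-core knockout than in the Pcl1-3 + Jarid2 + Aebp2 KO, with a log2 difference of -0.72 that did not pass (SE 0.26, adjusted p = 0.0756). Libraries lay below without overlap for 13.4% of tested IDs. Dppa3 was called lower at this step with the replicate block, without the filter, and without Pcl1-3 + Jarid2 + Aebp2 KO replicate 1. Dazl was called higher with the block and without the filter.

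**Figure D4:**
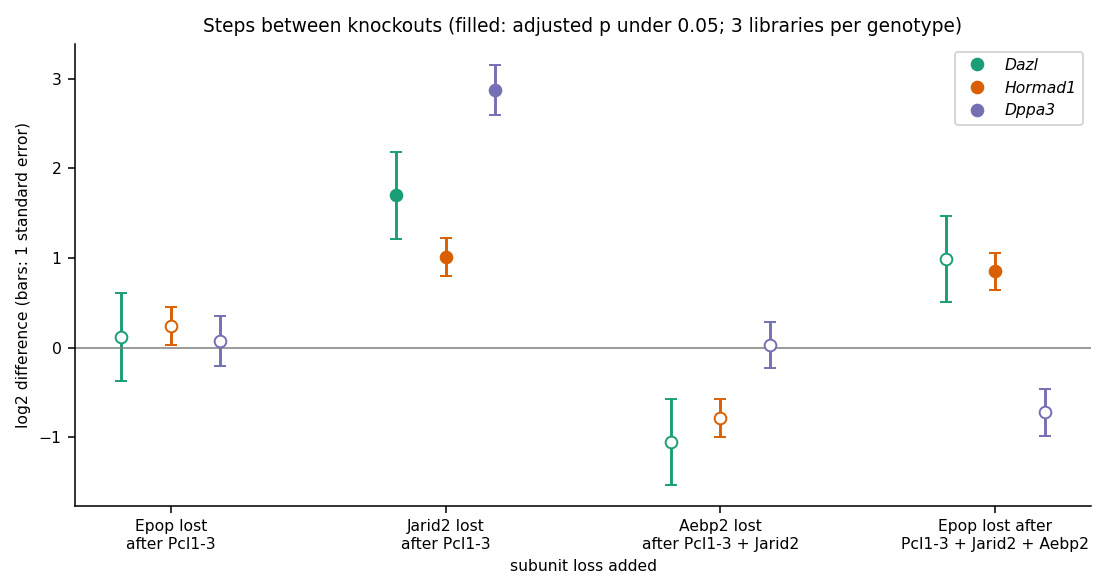
Log2 difference for Dazl, Hormad1 and Dppa3 in 4 steps, each the loss of 1 more subunit gene; points are estimates from 3 libraries per genotype, bars are 1 standard error, and filled points have an adjusted p under 0.05. All 3 genes are filled at the loss of Jarid2 after Pcl1-3, at 1.70, 1.01 and 2.88, and Hormad1 alone is filled at the last step, at 0.85.

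Whether losing Jarid2 and Aebp2 had the same effect with and without the Pcl genes was tested as a difference of differences. Dppa3 was the 1 gene of the 8 to pass, where 3.71% of tested IDs passed with a higher effect in Pcl1-3 KO cells. From the Pcl1-3 KO to the Pcl1-3 + Jarid2 + Aebp2 KO its mean went from 19.4 ± 2.05 to 145 ± 32.2 CPM (SD, n = 3), and from WT to the Jarid2 + Aebp2 KO from 34.9 ± 7.36 to 73.4 ± 27.5 CPM. The effect was larger in Pcl1-3 KO cells by 1.83 on the log2 scale (SE 0.38, adjusted p = 0.00626). Over 18 alternatives it ranged from 1.6 to 2.14 and passed in each, at an adjusted p of at most 0.0261. Ddx4 passed with a lower effect in Pcl1-3 KO cells with the replicate block and without the filter. Whether losing Epop had the same effect in the Pcl1-3 KO and in the Pcl1-3 + Jarid2 + Aebp2 KO was tested likewise, and none of the 8 passed in edgeR, where 2.09% of tested IDs did; 1 had an unadjusted p under 0.05 (Dppa3), and DESeq2 called 0. The difference was 0.61 for Hormad1 (SE 0.30, adjusted p = 0.398) and -0.80 for Dppa3 (SE 0.38, adjusted p = 0.379). Hormad1 passed with the replicate block, and Dazl and Dppa3 without the filter.

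Replicate number moved with these genes in every genotype. Replicate 1 was the lowest of the 3 libraries in all 8 genotypes for Dazl, Ddx4, Mael, Stra8 and Sycp3, in 7 for Hormad1 and in 6 for Sycp1 and Dppa3, or 59 of 64 gene and genotype pairs. Over all tested IDs, replicate 1 was lowest in all 8 genotypes for 2.69% and highest in all 8 for 2.38%. The sources used here do not say what replicate numbers stand for. With replicate number as a block, the genes called without it were called again and others were added: the counts went from 5 to 6 in Suz12 KO, from 0 to 3 in the Pcl1-3 KO, from 0 to 2 in the Pcl1-3 + Epop KO, from 1 to 6 in the Pcl1-3 + Jarid2 KO and from 0 to 2 for the loss of Aebp2. Calls either way over all tested IDs rose with the block as well. They went from 5721 to 7259, 1274 to 2895, 1115 to 2730, 2516 to 4052 and 132 to 432 in that order. Without the replicate 1 libraries of all genotypes, an alternative chosen after seeing the data, 6 genes rose in Suz12 KO: the same 5 and Stra8. The genes lower in the non-core knockout than in Suz12 KO were again Dazl, Ddx4, Mael and Sycp1, and those that rose with the loss of Jarid2 in Pcl1-3 KO cells were again Dazl, Hormad1 and Dppa3. In that alternative Dazl and Ddx4 joined Dppa3 in the Pcl1-3 + Jarid2 KO, Dazl was called higher than WT in the non-core knockout, Ddx4 was called higher in the Pcl1-3 + Epop KO, and Dppa3 was called lower at the last loss of Epop. Hormad1 lost its call against WT in the non-core knockout (0.52, adjusted p = 0.129) and at that last step (0.81, adjusted p = 0.0601).

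**Figure D5:**
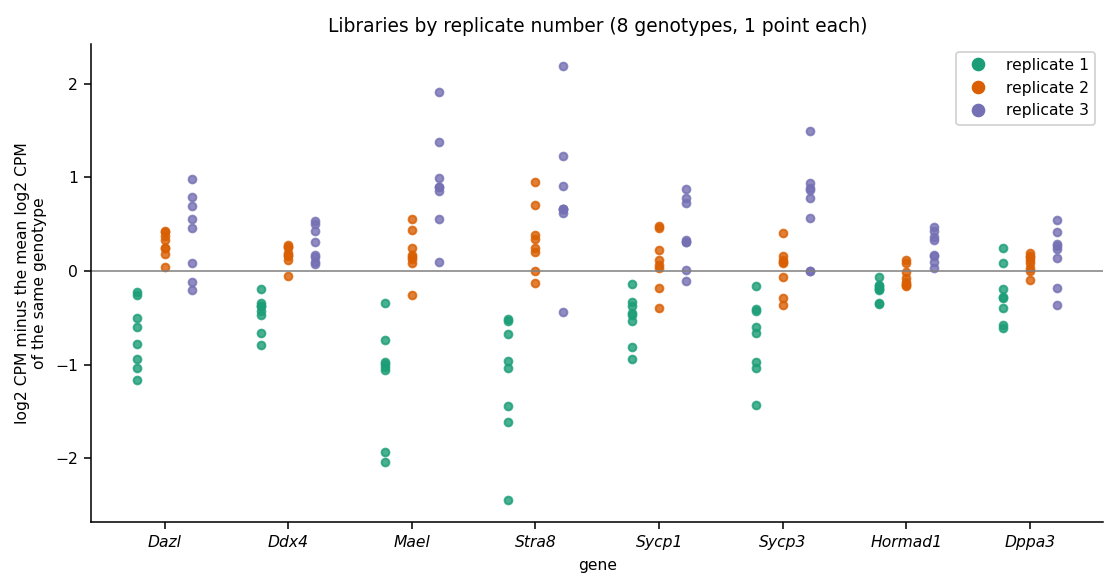
Log2 CPM of each library minus the mean log2 CPM of its genotype, for the 8 genes, coloured by replicate number; each gene and replicate number has 8 points, 1 per genotype. Replicate 1 points lie below 0 for Dazl, Ddx4, Mael, Stra8, Sycp1, Sycp3 and Hormad1 in every genotype, while 2 of the 8 Dppa3 points lie above 0.

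Across the 8 genotype means of log2 CPM, the closest pair among the genes was Dazl and Stra8 (Pearson r = 0.94), followed by Ddx4 and Sycp1 (0.82) and Mael and Sycp1 (0.81). The lowest value was for Mael and Sycp3 (-0.68). These values describe 8 means from shared libraries. Of all tested IDs, the pattern most like that of Mael was ENSMUSG00000087651.3 (r = 0.9971), which went from 5.42 CPM in WT to 24 CPM in Suz12 KO, and the one most like that of Dppa3 was ENSMUSG00000054115.11 (r = 0.9839), with 74.9 CPM in WT and 88.3 CPM in Suz12 KO.

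Other genes of the germline programme were looked up in the peak lists by symbol, from a list of 50 that excluded the 8. SUZ12 peaks lay at 13 of them (26%), JARID2 peaks at 11 (22%) and PCL2 peaks at 33 (66%), beside 24.2%, 14.3% and 42% of all protein-coding genes. Those with a SUZ12 peak included Tdrd1 and Mov10l1 of the piRNA pathway and Syce2 and Tex12 of the synaptonemal complex. Among 22 known repressors of germline genes, 4 had a SUZ12 peak, 1 a JARID2 peak (E2f6) and 10 a PCL2 peak. Of 17 genes for retinoic acid receptors and handling, whose signal induces Stra8 in the gonad, 12 had a SUZ12 peak (70.6%), 7 a JARID2 peak and 16 a PCL2 peak. The RNA of these lists is not analysed here.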

How the data were processed

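For each of 24 RNA libraries the authors deposited raw read counts by Ensembl gene ID, and for the series 3 peak lists, other values being base positions. Per the labels' protocols, a TruSeq kit was used on total RNA; STAR, HTSeq and mm10 appear in the submitters' processing notes, with no versions. The sources used here do not state the strand setting, peak caller or pooling, so overlapping genes and the retrocopies of Dppa3 are uncertain. No table used here pairs Ensembl IDs with symbols, so the targeted genes, cell type markers and gene lists were not analysed on RNA; the 8 symbols came with their IDs.

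Of 55450 IDs, 24056 had no count and 14650 passed filterByExpr. They were scaled by TMM and fitted in edgeR 4.0.16 (R 4.3.3) over the 24 libraries, with 1 mean per genotype and robust quasi-likelihood tests, Benjamini-Hochberg adjusted over all tested IDs. The fit was tested on simulated data: 45 of 50 genes raised 4-fold and 40 of 50 lowered 4-fold were recovered in Suz12 KO against WT. Log2 CPM used a prior count of 2. Intervals of 95% are normal approximations. Alternatives were RLE scaling, no filter, the replicate number as a block, only the genotypes compared, DESeq2 1.42.0, leaving out each library, and leaving out replicate 1 of every genotype. Gene positions came from RefSeq GRCm38.p6. Named genes are the 8, and for likeness the 2 IDs with the highest Pearson r to each, of which the first is given for 2 genes. The members and lists were chosen with earlier results of these data known.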

Additional observations from a re-analysis of the deposited data

Results flagged for a closer look

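Dppa3 was picked out because the effect of losing Jarid2 and Aebp2 differed between backgrounds, by a test of the difference itself: it was larger by 1.83 on the log2 scale in Pcl1-3 KO cells than in cells with the Pcl genes (edgeR, SE 0.38, adjusted p = 0.00626). All 3 libraries of the Pcl1-3 KO were below all 3 WT libraries, as was so for 15.5% of tested IDs. The Pcl1-3 + Jarid2 + Aebp2 KO was not tested against the Jarid2 + Aebp2 KO directly. Levels were 108, 159 and 168 CPM in the Pcl1-3 + Jarid2 + Aebp2 KO and 47.0, 71.3 and 102 CPM in the Jarid2 + Aebp2 KO.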

How the results depend on the processing

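Single calls were repeated 234 times over the alternatives: 206 kept their direction and their side of the threshold, 28 kept the direction and lost the call, and none reversed. Counts of the 8 genes called moved more, and the cause was not tested. Without a filter on low counts (31394 IDs) 3 were called in the Pcl1-3 KO, 3 in the Pcl1-3 + Epop KO, 3 in the Jarid2 + Aebp2 KO, 5 in the Pcl1-3 + Jarid2 KO, 8 in the non-core knockout against Suz12 KO (3 higher, 5 lower), 2 for the loss of Aebp2, 3 for the last loss of Epop, and 2 in each difference of differences. With the replicate block these were 3 in the Pcl1-3 KO, 2 in the Pcl1-3 + Epop KO, 6 in the Pcl1-3 + Jarid2 KO, 2 for the loss of Aebp2, 3 for the last loss of Epop, and 2 and 1 in the differences of differences; every other count stayed within 1.5 times. With only the genotypes compared they were 2 in the Pcl1-3 KO, 0 in the Jarid2 + Aebp2 KO and 4 in the Pcl1-3 + Jarid2 KO. DESeq2 called 1 in the Pcl1-3 KO and 1 in the Pcl1-3 + Epop KO, Dppa3 being lower in each, and 1 for the loss of Aebp2 (Hormad1, lower). Without replicate 1 of all genotypes 1 was called in the Pcl1-3 + Epop KO and 3 in the Pcl1-3 + Jarid2 KO. Leaving out 1 library gave 0 to 1 in the Pcl1-3 KO, 0 to 1 in the Pcl1-3 + Epop KO, 0 to 1 in the Jarid2 + Aebp2 KO, 1 in each case in the non-core knockout against WT and 0 to 1 for the last loss of Epop. Of peaks at least 1 kb wide, JARID2 had 0 and PCL2 3 of the 8 genes, beside 9.18% and 22.7% of all protein-coding genes. SUZ12 had 4 of the 8, beside 19.5%.

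Counts over all tested IDs also moved: from 1274 to between 269 and 2895 in the Pcl1-3 KO, 1115 to between 155 and 2730 in the Pcl1-3 + Epop KO, 643 to between 28 and 2281 in the Jarid2 + Aebp2 KO, 2516 to between 1337 and 4052 in the Pcl1-3 + Jarid2 KO, 2202 to between 1229 and 3851 in the Pcl1-3 + Jarid2 + Aebp2 KO, 918 to between 414 and 1949 for the loss of Jarid2, 132 to between 35 and 432 for that of Aebp2, 1 to between 0 and 20 for the first loss of Epop, 1647 to between 937 and 3049 for the last, and 1078 to between 35 and 2745 and 306 to between 89 and 914 for the differences of differences. Libraries with the same replicate number shared a deviation. Among 84 same-numbered pairs the median r of deviations was 0.26, beside -0.13 for other pairs. All 24 libraries correlated best with their own number. Of the same-numbered pairs 75 had an r above 0.1, and the lowest was 0.03. Whether same-numbered libraries were paired is not stated in the sources used here, so the block was kept as an alternative. The main fit leaves this deviation out, and several genes it did not call were called with the block. Depth limits Mael, Stra8, Sycp1 and Sycp3, which rested on few reads in WT.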
